A study of Mus musculus with 6 samples.

Results

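The thrombospondins are a family of 5 secreted calcium-binding glycoproteins, encoded in the mouse by Thbs1, Thbs2, Thbs3, Thbs4 and Comp (cartilage oligomeric matrix protein). Their UMIs (unique molecular identifiers, each standing for 1 captured RNA molecule) were read in digits-in-a-dish (DID) cultures, in which dissociated distal limb mesenchyme re-forms cartilage, tendon-like and contractile cells. The 5 genes were taken by their symbols from the 32286 features of the count matrices, and all 5 were found. They were taken as a gene family, with earlier results of these data known.

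The cells came from the distal forelimb mesenchyme of wildtype CD-1 mouse embryos at E11.5, pooled over limb buds, dissociated, plated at high density and grown with no treatment. Cultures were taken at Day 2, Day 7 and Day 10, with replicate cultures A and B on each day, so that the labels set the 3 groups apart only by time in culture. Each group held 2 single-cell RNA-seq libraries. Whether the days shared embryo pools or runs is not stated in the sources used here, so day and batch cannot be told apart. The study's limit on the mitochondrial share of a cell also differed, at 25% for Day 2, 30% for Day 7 and 40% for Day 10. The labels call the 2 cultures of a day independent, and they do not say whether these came from separate pools of embryos, so p-values measure the spread between cultures. A culture holds a mixture of cell types.

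As background, thrombospondins fall into a pair of subgroups. THBS1 and THBS2 are trimers that bind CD36, CD47, integrins and proteoglycans at the cell surface, and THBS1 can activate latent TGF-beta. THBS3, THBS4 and COMP are pentamers that bind collagen fibrils and other matrix proteins. COMP is an abundant protein of cartilage and tendon, mutations of which cause pseudoachondroplasia, THBS4 is found in tendon and muscle, THBS3 takes part in growth-plate maturation, and THBS2 is made by fibroblasts and perichondrium and was used by the study as a perichondrial marker. THBS1 is also stored in platelets.

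In GRCm38 with the GENCODE annotation, all 5 are protein-coding genes on separate chromosomes. Thbs1 (ENSMUSG00000040152) lies on the plus strand at chr2:118111876-118127133 and Thbs3 (ENSMUSG00000028047) on the plus strand at chr3:89215180-89226837. Comp (ENSMUSG00000031849) lies on the plus strand at chr8:70373558-70382066, Thbs4 (ENSMUSG00000021702) on the minus strand at chr13:92751590-92794818 and Thbs2 (ENSMUSG00000023885) on the minus strand at chr17:14665500-14694235. Their longest annotated transcripts hold between 19 exons (Comp) and 22 exons (Thbs1, Thbs2 and Thbs4). The whole span of Thbs3 is covered by Mtx1 on the opposite strand, and whether the counting used strand is not stated in the sources used here. Mtx1 lay between 38.1 and 46.1 CPM (UMIs per 1000000 UMIs of the library) in all 6 libraries. It was lower at Day 7 than at Day 2 and higher again at Day 10, and the levels of Thbs3 are given later. The part of Mtx1 reads in the Thbs3 counts was not tested.

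RefSeq promoter windows were found for 3 of the 5 genes, Thbs2, Thbs3 and Thbs4. Those of Thbs2 and Thbs4 are printed because, of 3 cell classes described later, both members were highest from Day 7 in that with UMIs of the tendon gene Tnmd. Each is the 250 bases before the RefSeq start (build GRCm38.p6), 5′ to 3′ on the gene's own strand, with matches to the E-box CANNTG in capitals. The Thbs2 window is chr17:14694263-14694512 (minus strand) and the Thbs4 window is chr13:92794819-92795068 (minus strand).
Thbs2: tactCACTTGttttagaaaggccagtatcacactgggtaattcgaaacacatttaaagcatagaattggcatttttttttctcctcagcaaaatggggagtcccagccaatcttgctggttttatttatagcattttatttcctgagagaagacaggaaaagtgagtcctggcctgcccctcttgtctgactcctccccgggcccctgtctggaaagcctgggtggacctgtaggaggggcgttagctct
Thbs4: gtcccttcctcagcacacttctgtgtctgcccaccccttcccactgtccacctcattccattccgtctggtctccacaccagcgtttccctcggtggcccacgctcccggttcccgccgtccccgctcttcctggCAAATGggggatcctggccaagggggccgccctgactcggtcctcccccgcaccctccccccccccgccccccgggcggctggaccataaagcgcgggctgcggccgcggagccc

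Of their bases, 46.8% were G or C in the Thbs2 window and 70.8% in the Thbs4 window, against a median of 52.4% over all 32851 windows. Each held 1 E-box match, as did that of Thbs3, on a motif that is its own reverse complement and was held by 66.2% of all windows. The Thbs4 window also held 2 matches to the TEAD-type GGAATG (12.6% of windows held 1 or more on either strand) and 3 to the GC-box GGGCGG (32.7% of windows), while the Thbs2 window held 1 match to TATAAA (12.4% of windows). The SOX-type ACAAT (27.7% of windows) and the AP-1-type TGANTCA (6.75% of windows) were searched on both strands and had no match in these 3 windows. These counts describe letters and not binding.

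After the study's filters the libraries held between 9448 and 16486 cells and between 178022112 and 260245417 UMIs. Day 2 replicate B was the shallowest per cell, with a median of 3871 UMIs against 8062 to 24197 in the others. Any pair of libraries shared 24 to 67 cell barcodes. The chondrocyte markers (Col2a1, Acan, Col9a1, Matn4 and Snorc) summed to 1254 and 1374 CPM at Day 2, then 12541 and 11511, then 8043 and 7370.5, and the tenocyte markers (Scx, Mkx, Fmod, Kera and Col1a1) went from 726 and 747 through 1967 and 1832 to 3749 and 3289. Most of the tenocyte sum was Col1a1, a collagen that perichondrium and other fibroblasts also make (568 and 599, then 1871 and 1736, then 3597 and 3147), whereas Scx stood at 139 and 127, then 38.2 and 36.6, then 63.1 and 61.2, and 3 of the 5 tenocyte genes rose and 2 fell in each interval. The contractile markers lay between 3091 and 5323 throughout and the skeletal muscle markers fell from 313 and 253 to 3.05 and 5.75. The osteoblast markers reached 548 and 778 at Day 10. Macrophage markers summed to 10.4 to 32.8 until Day 7 and to 87.4 and 109.9 at Day 10, platelet and megakaryocyte markers to 2.43 to 23.4 throughout, with Day 10 highest, endothelial markers to at most 1.57, and erythrocyte markers to 59.2 and 142 at Day 2 and at most 0.0257 afterwards.

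All 5 thrombospondins rose between Day 2 and Day 7, and Comp rose far more than the others. Levels are in CPM. Since the libraries count RNA 3′ ends, they were not divided by length. Fold changes are those of the fit, whose scaling of libraries is described later, and they differ from ratios of these levels. Comp stood at 1.36 and 1.69 CPM in the 2 Day 2 cultures, 461 and 413 CPM in the Day 7 cultures, and 807 and 709 CPM in the Day 10 cultures. No level of one day overlapped that of another. In the fit, its Day 7 level was 349.7-fold its Day 2 level (log2 fold change 8.45 ± 0.14 SE, adjusted p = 2.09e-09, edgeR's quasi-likelihood test on library sums with Benjamini-Hochberg adjustment over 18987 genes, n = 2 per day), a log2 fold change at percentile 99.9 of all genes tested.

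Thbs1 was the most abundant member in every library, at 258 and 261 CPM at Day 2, 793 and 715 CPM at Day 7, and 1040.3 and 962 CPM at Day 10. It rose 3.53-fold from Day 2 to Day 7 (log2 fold change 1.82 ± 0.08 SE, adjusted p = 1.19e-07). Thbs2 stood at 13.5 and 14.9 CPM, then 97.5 and 86.4 CPM, then 145 and 136 CPM, and its first step was 7.87-fold (log2 fold change 2.98 ± 0.08, adjusted p = 1.02e-08). Both trimeric members were therefore higher at each later day. The share of all genes whose 2 cultures per day do not overlap was not counted, and the shares called are given later.

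Thbs4 had the lowest level of the 5 in all 6 libraries, at 1.04 and 0.910 CPM at Day 2, 10.9 and 8.29 CPM at Day 7, and 20.9 and 16.7 CPM at Day 10. It rose 11.9-fold from Day 2 to Day 7 (log2 fold change 3.58 ± 0.17, adjusted p = 2.82e-07). Thbs3 had the smallest first step, from 14.1 and 13.7 CPM to 28.8 and 26.7 CPM (2.43-fold, log2 fold change 1.28 ± 0.06, adjusted p = 3.03e-07), and stood at 26.0 and 24.2 CPM at Day 10, below both Day 7 cultures. At Day 2 Thbs2 and Thbs3 overlapped in level, and from Day 7 on Thbs2 lay above Thbs3 in every culture.

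The call of all 5 members between Day 2 and Day 7 is to be read against 70.3% of all genes tested that were called in that comparison. The median log2 fold change of the 5 was 2.98, against 0.01 over all genes. The fit scales libraries by TMM (trimmed mean of M-values) factors. Scaling by total UMIs alone lowered the log2 fold changes of this comparison by a median of 0.28 and the share of called genes that were higher from 50.8% to 33.3%, and all 5 members were still called in the same direction. These values are for whole cultures, in which a changed share of a cell type and changed RNA per cell cannot be told apart. Levels within the 3 cell classes are given later.

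**Figure D1:**
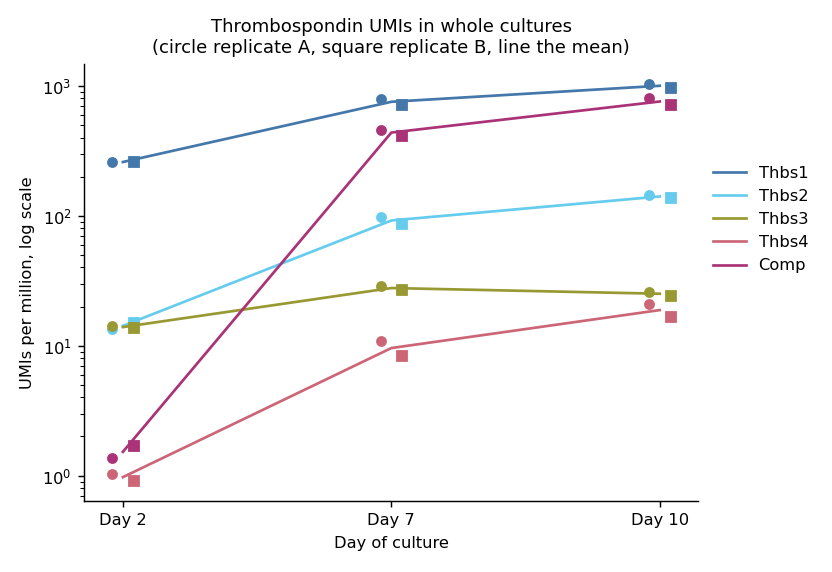
CPM (log axis) of the 5 thrombospondins in the 2 cultures of each day, with circles for replicate A, squares for replicate B and lines through the day means. Comp climbs from 1.36 and 1.69 at Day 2 to 807 and 709 at Day 10, close below Thbs1, while Thbs3 stays between 13.7 and 28.8.

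Between Day 7 and Day 10 the steps were smaller. Thbs4 rose 1.93-fold (log2 fold change 0.95 ± 0.14 SE, adjusted p = 0.000697, edgeR), Comp 1.71-fold (0.77 ± 0.10, adjusted p = 0.000307), Thbs2 1.51-fold (0.59 ± 0.07, adjusted p = 0.000246) and Thbs1 1.31-fold (0.39 ± 0.07, adjusted p = 0.00256). Thbs3 had the only negative value of the 5, at a log2 fold change of -0.17 ± 0.06 (adjusted p = 0.0475). That call did not hold under several alternatives: adjusted p was 0.0602 with DESeq2, 0.0533 with its size factors in edgeR, 0.0584 with no count filter, 0.0598 with all deposited barcodes, 0.0687 with scaling by total UMIs alone, 0.287 without Day 7 replicate A, 0.0732 without Day 7 replicate B, and 0.301 without Day 10 replicate B, where the value was -0.10. All 5 members were called, 4 up and 1 down, where 52.2% of all genes were. In the same step the contractile markers rose (5 of 5, median log2 fold change 0.67), as did the osteoblast (5 of 5, 4.52), macrophage (5 of 5, 1.71) and platelet markers (3 of 4 tested, 0.77), and the chondrocyte markers fell (5 of 5, -0.65). The part of these markers in the members' results was not tested.

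The make-up of the family changed with these rises. Thbs1 supplied 89.6% and 89.3% of the 5 genes' UMIs at Day 2, then 57.0% and 57.2% at Day 7, then 51.0% and 52.1%. Comp supplied 0.472% and 0.579%, then 33.1% in both Day 7 cultures, then 39.6% and 38.4%. Thbs2 went from 4.70% and 5.10% to 7.12% and 7.38%, and Thbs3 from 4.92% and 4.68% to 1.27% and 1.31%. Comp thus stood second behind Thbs1 in every culture from Day 7 on.

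Counted by cell, Comp gained the lead in more cells between Day 2 and Day 7 but not between Day 7 and Day 10, although its share of UMIs grew in both. Among cells with at least 5 UMIs of the family (2662 to 9163 per library), Thbs1 was the leading member in 95.9% and 95.8% at Day 2, then 59.0% and 56.1%, then 59.2% and 59.8%. Comp led in 0.0624% and 0.150% of such cells at Day 2, then 30.9% and 33.0%, then 28.2% and 27.0%. Thbs2 led in 1.87% and 2.14%, then 5.53% and 6.46%, then 8.29% and 8.50%. Cells with 5 family UMIs are deeper or richer in these genes than the rest, and deeper libraries contribute more of them.

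**Figure D2:**
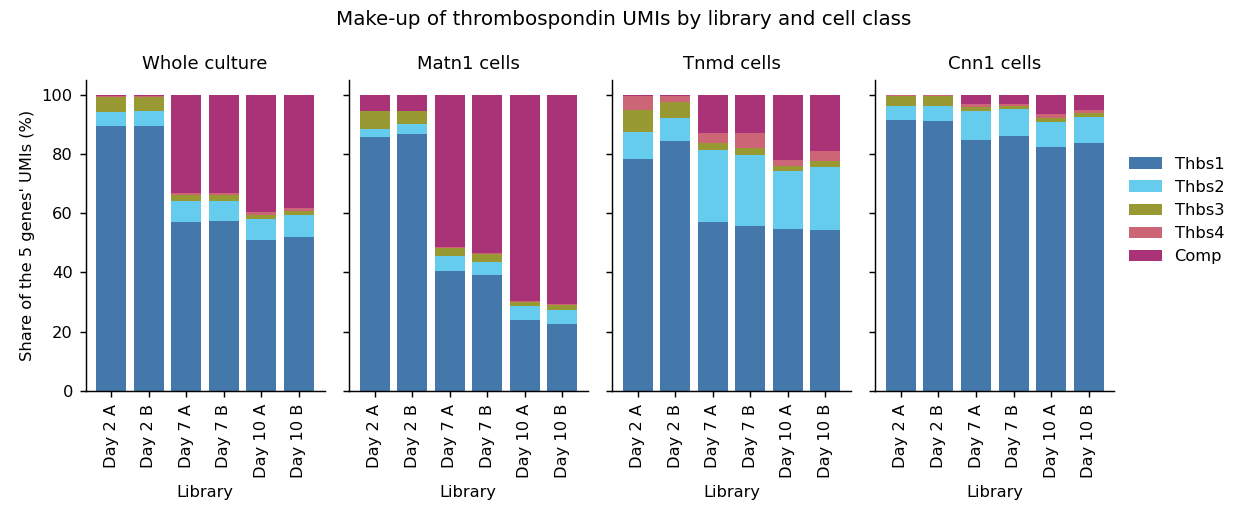
Share (%) of the 5 thrombospondin genes' UMIs held by each member, for each library, in whole cultures and in cells with UMIs of Matn1, Tnmd or Cnn1 alone. Comp fills 69.5% and 70.7% of the bar in Matn1 cells at Day 10 and 6.64% and 5.34% in Cnn1 cells.

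Which cells carried each member was then read in 3 classes of cells, each with at least 1 UMI of its own marker and none of the other two. Matn1, which encodes matrilin-1 of the cartilage matrix (chr4:130944385-130955475), was held alone by 358, 432, 7103, 5828, 3480 and 3479 cells (Day 2 A and B, Day 7 A and B, Day 10 A and B). Tnmd, the tendon gene tenomodulin (chrX:133850980-133865577), gave 149, 617, 127, 134, 281 and 212 cells. A Tnmd UMI, alone or not, was held by 738, 1361, 855, 836, 1465 and 1189 cells, so most of these were left out of the Tnmd class. The part of this selection in the members' levels was not tested. Cnn1, the smooth-muscle calponin of contractile cells (chr9:22099216-22109630), gave 3148, 4418, 768, 868, 1283 and 1244 cells. The study itself counted Cnn1, with Igfbp7 and Spp1, among the markers by which it annotated osteoblasts. Cells with 2 or 3 of the markers, which belong to no class, made up 5.76% to 31.6% of a library. No doublet caller was run here, so doublets were treated only by the study's upper limit on genes per cell and by leaving these cells out.

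The classes were set beside the marker lists of their names at Day 10. At Day 10 the chondrocyte list, which leaves out Matn1, summed to 17785 and 16883 CPM in Matn1 cells against 1125 and 1071 in Tnmd cells and 646 and 619 in Cnn1 cells. The contractile list summed to 9029 and 9345 CPM in Cnn1 cells against 1802 and 2174 in Tnmd cells and 948 and 1020 in Matn1 cells. The tenocyte list was highest in Tnmd cells (5545 and 4771 CPM, against 4155 and 3732 in Cnn1 cells), but most of this was Col1a1. Of the other tenocyte genes at Day 10, Fmod stood at 127 and 131 CPM in Tnmd cells against 69.0 and 65.8 in Cnn1 cells, Mkx at 17.5 and 12.2 against 5.94 and 7.67, Scx at 104 and 96.8 against 87.9 and 88.1, and Kera at no more than 0.207 in either. At Day 7 Scx was higher in Cnn1 cells (89.2 and 83.0) than in Tnmd cells (47.1 and 58.9). Against Cnn1 cells, the name of the Tnmd class therefore rests on Fmod and Mkx more than on Scx. These single genes are not given here for Matn1 cells. Tnmd cells of Day 2 replicate B were shallow, with a median of 3633 UMIs per cell against 23130 in replicate A. At Day 10 the osteoblast list stood at 62.3 CPM in Tnmd cells of replicate A and 1348 in replicate B.

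Free RNA in the droplets and doublets, which were not told apart here, have to be set beside these classes. Macrophages, picked by UMIs of at least 3 of 5 macrophage genes (16 to 160 cells per library), should hold no matrilin-1, yet a Matn1 UMI was found in 0 of 39 of them at Day 2 (which allows a share of up to 7.69%), in 75.9% and 56.4% on Day 7, then in 53.3% and 45.0%. Of all cells, 73.4% and 68.3% had one at Day 7 and 62.3% and 60.1% at Day 10. Tnmd UMIs were found in 2 of 39 macrophages at Day 2 (against 7.81% and 8.26% of all cells), 10.3% in both cultures at Day 7 (against 6.34% and 6.77% of all cells) and 4.92% and 4.38% at Day 10 (against 14.1% and 11.95%), and Cnn1 UMIs in 11 of 39 (against 41.2% and 32.5% of all cells), then 17.2% and 17.9% (against 24.9% and 26.8%), then 17.2% and 13.8% (against 40.1% and 37.3%). A single UMI of Matn1 after Day 2, of Tnmd or of Cnn1 therefore does not by itself mark a cell type. The classes are mixtures in which cells of the named type are enriched to the extent that their marker lists show. The Matn1 class was repeated with at least 3 UMIs, which 20.7% and 12.8% of macrophages had at Day 7 and 7.38% and 6.25% at Day 10. Comp stood in macrophages at 3.82 and 0 CPM at Day 2, 91.4 and 92.5 CPM at Day 7, and 84.4 and 60.8 CPM at Day 10, which serves as its background level. Letting the classes share cells moved 34 of 57 called class values of the members by over 1.5 times, 33 of them toward 0. It changed the sign of 4 called values, which are given beside their results. With at least 3 marker UMIs, 19 of the 57 moved by over 1.5 times, 3 of them toward 0, and none changed sign.

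Comp was highest in Matn1 cells. It stood there at 15.8 and 17.6 CPM at Day 2, 699.9 and 631 CPM at Day 7, and 1779 and 1621 CPM at Day 10. In Tnmd cells it stood at 0.855 and 1.04 CPM (3 and 5 UMIs), then 109 and 106 CPM, then 298 and 207 CPM. In Cnn1 cells it stood at 0.514 and 0.588 CPM, then 49.6 and 45.1 CPM, then 116 and 85.9 CPM. Within each day the 3 classes did not overlap, with Matn1 cells highest and Cnn1 cells lowest, but at Day 2 the difference between Cnn1 and Tnmd cells rests on 8 Tnmd UMIs and was not called (log2 fold change -0.74, adjusted p = 0.440, edgeR), and it turned to 1.01 when classes could share cells and to 0.18 with at least 3 marker UMIs.

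Comp in Cnn1 cells lay below the macrophage level at Day 7 and is read as background there, while at Day 10 it lay above that of macrophages in both cultures but below it with at least 3 Cnn1 UMIs (67.8 and 53.2 CPM), so that it cannot be told from background there either. In Tnmd cells it lay above the macrophage level in both cultures at Day 10. At Day 7 it lay above by little (109 and 106 CPM, against 91.4 and 92.5 CPM in 29 and 39 macrophages), so that it is not clear of background there. Matn1 cells exceeded Tnmd cells by a log2 fold change of 4.12 ± 0.33 SE at Day 2 (adjusted p = 9.38e-08, edgeR on the 18 class sums with the library as a term), 2.78 ± 0.09 at Day 7 (adjusted p = 7.92e-13) and 2.83 ± 0.07 at Day 10 (adjusted p = 3.69e-14). The Day 2 ratio rests on 226 against 8 UMIs (17.3-fold, with an exact 95% interval of 8.64 to 40.6 that covers counting error only). With at least 3 Matn1 UMIs the Comp level at Day 10 was higher still, at 2682 and 2537 CPM. Cnn1 cells lay below Tnmd cells at Day 7 (log2 fold change -1.15 ± 0.10, adjusted p = 4.64e-07) and Day 10 (-1.30 ± 0.07, adjusted p = 2.2e-09). That order turned when classes could share cells, to 0.37 at Day 7 and 0.17 at Day 10.

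Shares of cells gave the same order. With every cell thinned to 1000 UMIs, which left out the shallower cells (at Day 10, 3398 and 3420 Matn1 cells, 1273 and 1239 Cnn1 cells, 120 and 158 macrophages and all Tnmd cells remained), a Comp UMI was seen in 46.2% and 42.8% of Matn1 cells at Day 10, 22.2% and 15.2% of Tnmd cells, 11.2% and 9.31% of Cnn1 cells and 5.91% and 6.73% of macrophages. Unthinned, the shares were 81.5% and 77.0%, 75.8% and 72.2%, 67.3% and 59.2%, and 54.1% and 47.5%, at medians of 17637.5 and 13625 UMIs per Matn1 cell and 20301.5 and 19050.5 per macrophage. The classes lay further apart after thinning. At Day 2 the thinned shares were 2.10% and 1.38% in Matn1 cells and at most 0.118% in the other two classes.

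In Matn1 cells, Comp overtook Thbs1 in UMIs by Day 7. The Comp share of family UMIs there was 5.44% and 5.45% at Day 2, then 51.5% and 53.5%, then 69.5% and 70.7%, while that of Thbs1 fell from 85.8% and 86.7% through 40.6% and 39.0% to 24.1% and 22.7%. Cell by cell, Comp led in 1.15% and 2.55% of Matn1 cells with at least 5 family UMIs at Day 2, then 43.0% and 46.8%, then 50.4% and 50.9%, and Thbs1 led in 48.5% and 44.2% at Day 7, so that the cultures differed in which led more cells, and in 38.4% and 36.6% at Day 10. In Cnn1 cells Thbs1 kept 82.5% and 83.6% of family UMIs at Day 10. In Tnmd cells Thbs1 held 54.7% and 54.2%, with Thbs2 (19.3% and 21.4%) and Comp (22.1% and 19.0%) sharing most of the rest. The change of lead from Thbs1 to Comp was therefore seen in Matn1 cells and in neither of the other classes.

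Thbs1 was highest in Cnn1 cells on every day, with 347 and 335 CPM at Day 2, then 1275 and 1282 CPM, then 1444 and 1344 CPM. Matn1 cells held 249.6 and 279.7 CPM, then 552 and 459.9 CPM, then 617 and 519.9 CPM, and Tnmd cells 159 and 184 CPM, then 479 and 452 CPM, then 739 and 593 CPM. Macrophages held 53.5 and 35.4 CPM at Day 2, 208 and 138 CPM at Day 7, and 363 and 327 CPM at Day 10. Cnn1 cells exceeded Tnmd cells by log2 fold changes of 1.05 ± 0.08 SE at Day 2, 1.49 ± 0.08 at Day 7 and 1.09 ± 0.07 at Day 10 (adjusted p = 1.99e-07, 1.14e-09 and 1.63e-08, edgeR). Matn1 cells lay below Cnn1 cells by -0.42 ± 0.07, -1.22 ± 0.07 and -1.26 ± 0.07 (adjusted p = 0.000225, 1.96e-10 and 1.76e-10).

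Between Matn1 and Tnmd cells the Thbs1 difference shrank with time, from 0.62 ± 0.08 at Day 2 (adjusted p = 2.96e-05, edgeR) to 0.27 ± 0.08 at Day 7 (adjusted p = 0.0137) and -0.16 ± 0.07 at Day 10 (adjusted p = 0.0918). The Day 7 call was lost without Day 7 replicate A (0.18, adjusted p = 0.295). When classes could share cells the values were -0.024 at Day 2 and -0.20 at Day 7, and scaling by total UMIs alone gave 0.12 at Day 7 (adjusted p = 0.273), so that the order of this pair depended on how the classes were set, and its call also on the scaling. At Day 10 the lower value of Matn1 cells was called when classes could share cells (-0.20, adjusted p = 0.00381), with total UMIs (-0.23, 0.0161), with at least 3 marker UMIs (-0.25, 0.0237), in cells with at least 5000 UMIs (-0.19, 0.0367) and with no count filter (-0.14, 0.0337). The Day 7 value was 0.76 (adjusted p = 2.67e-06) with at least 3 marker UMIs.

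**Figure D3:**
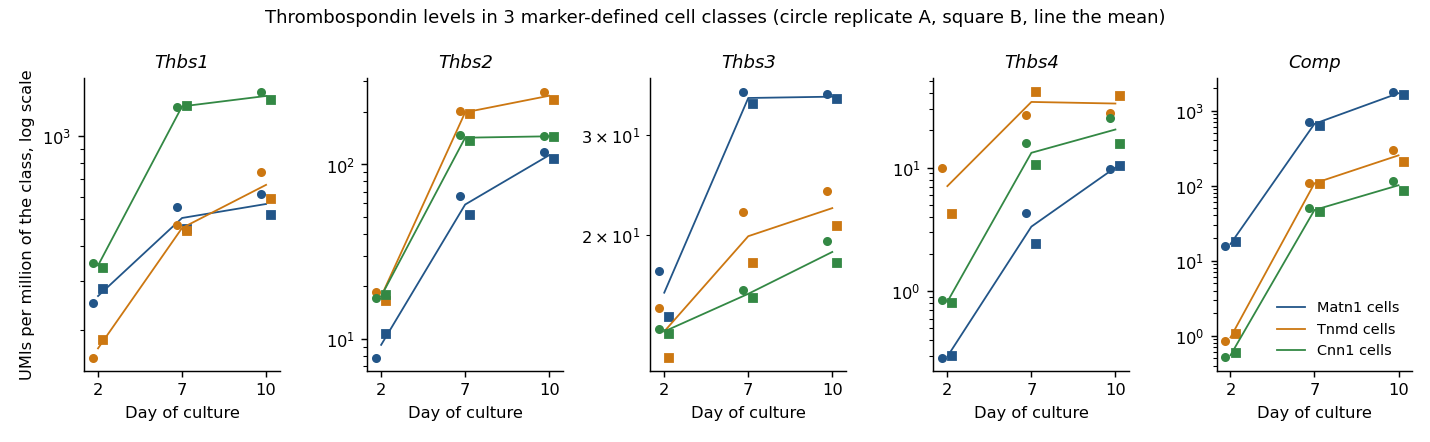
CPM of the class total (log axis, scaled for each gene) against day of culture for each thrombospondin in Matn1, Tnmd and Cnn1 cells. Thbs1 is highest in Cnn1 cells, Comp and, from Day 7, Thbs3 in Matn1 cells, and Thbs4 in Tnmd cells, as is Thbs2 from Day 7.

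Of the 3 classes, Thbs2 was lowest in Matn1 cells and, from Day 7, highest in Tnmd cells. Cells with none of the 3 markers held 182 and 150 CPM at Day 7, then 248 and 191 CPM at Day 10. Cells with at least 3 UMIs of the joint gene Prg4 held 195 and 204 CPM, then 159 and 183 CPM, on the same days. Tnmd cells held 18.5 and 16.5 CPM at Day 2, then 204 and 194 CPM, then 261 and 234 CPM. Cnn1 cells held 17.3 and 17.9 CPM, then 148 and 137 CPM, then 147 and 144 CPM, with no gain after Day 7. Matn1 cells held 7.83 and 10.7 CPM, then 66.3 and 51.6 CPM, then 118 and 108 CPM. Macrophages held 13.4 and 13.3 CPM at Day 2 (7 and 3 UMIs), 78.3 and 47.9 CPM at Day 7 and 60.5 and 43.5 CPM at Day 10. The Day 2 levels of all 3 classes and the Day 7 level in Matn1 cells are therefore not clear of background. With at least 3 Matn1 UMIs the Day 10 level was 59.0 and 57.6 CPM, within the macrophage range.

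Matn1 cells lay below Tnmd cells in Thbs2 by -0.91 ± 0.20 SE at Day 2 (log2 fold change, adjusted p = 0.00307, edgeR), -1.61 ± 0.09 at Day 7 (adjusted p = 7.63e-10) and -1.07 ± 0.07 at Day 10 (adjusted p = 4.76e-09). The Day 2 call was lost without Day 2 replicate A (-0.65, adjusted p = 0.112). Cnn1 and Tnmd cells differed by 0.07 ± 0.15 at Day 2 (adjusted p = 0.805), and Cnn1 cells were lower by -0.45 ± 0.09 at Day 7 (adjusted p = 0.000955) and -0.75 ± 0.07 at Day 10 (adjusted p = 6.05e-07). Matn1 cells were also below Cnn1 cells on each day, by -0.98 ± 0.14, -1.16 ± 0.06 and -0.32 ± 0.06 (adjusted p = 4.89e-05, 1.78e-10 and 0.00032).

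Thbs4 had its highest level of the 3 classes in Tnmd cells on each day, with wide spread between cultures. Tnmd cells held 9.98 and 4.18 CPM at Day 2 (35 and 20 UMIs), 26.8 and 41.1 CPM at Day 7, and 27.9 and 38.1 CPM at Day 10. Cnn1 cells held 0.841 and 0.798 CPM, then 15.8 and 10.5 CPM, then 25.03 and 15.6 CPM. Matn1 cells held 0.290 and 0.301 CPM (2 UMIs in each culture), then 4.25 and 2.40 CPM, then 9.69 and 10.3 CPM. Macrophages held no Thbs4 UMI in 3 cultures, 4 and 5 UMIs in 2 others and 81 UMIs (24.6 CPM) in Day 10 replicate B. That level lies above the Cnn1 and Matn1 cells of the same culture, which are therefore not clear of background there.

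At Day 2 the Thbs4 level of Tnmd cells was 22.4 times that of Matn1 cells over both cultures (55 against 4 UMIs, exact interval 8.28 to 85.3, which covers counting error only). The test over cultures called that difference (adjusted p = 0.00246, edgeR) and that to Cnn1 cells (log2 fold change -3.00 ± 0.55 for Cnn1 against Tnmd, adjusted p = 0.00114). Neither was called without Day 2 replicate A (adjusted p = 0.0872 and 0.100), which left the shallow replicate alone. Matn1 cells stayed below Tnmd cells at Day 7 (-3.24 ± 0.36, adjusted p = 4e-06) and Day 10 (-1.64 ± 0.24, adjusted p = 7.53e-05). Cnn1 cells were lower than Tnmd cells at Day 7 (-1.37 ± 0.34, adjusted p = 0.00676), though not without Day 7 replicate B (-0.70, adjusted p = 0.378), and at Day 10 the difference of -0.67 ± 0.24 missed the threshold (adjusted p = 0.0521) and rested on single cultures, at -1.22 without Day 10 replicate A (adjusted p = 0.0097) and -0.10 without Day 10 replicate B (adjusted p = 0.865). It was called when classes could share cells (-0.74, adjusted p = 0.000219), with at least 3 marker UMIs (-1.17, 0.00915), with total UMIs (-0.69, 0.0490) and with no count filter (-0.61, 1.77e-05). Matn1 against Cnn1 cells gave -1.51 ± 1.18 at Day 2 (adjusted p = 0.357), -1.87 ± 0.25 at Day 7 (adjusted p = 6.7e-06) and -0.97 ± 0.20 at Day 10 (adjusted p = 0.000576), the last not called without Day 10 replicate A (-0.61, adjusted p = 0.051).

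Thbs3 differed between Matn1 cells and the other classes at Day 7 and Day 10. At Day 2 it stood at 17.3 and 14.3 CPM in Matn1 cells, 14.8 and 12.1 CPM in Tnmd cells, and 13.6 and 13.3 CPM in Cnn1 cells, and none of the 3 differences was called (adjusted p = 0.186 to 0.808, edgeR). At Day 7 the levels were 35.8 and 34.0 CPM in Matn1 cells, 21.9 and 17.8 CPM in Tnmd cells, and 15.96 and 15.4 CPM in Cnn1 cells, and at Day 10 they were 35.5 and 34.7, 23.9 and 20.7, and 19.4 and 17.8 CPM. Macrophages held 4.22 to 10.7 CPM. Matn1 cells exceeded Tnmd cells by 0.98 ± 0.13 SE at Day 7 (adjusted p = 2.94e-05) and 0.71 ± 0.08 at Day 10 (adjusted p = 6.75e-06), and Cnn1 cells by 1.27 ± 0.06 (adjusted p = 5.5e-11) and 0.96 ± 0.05 (adjusted p = 2.05e-10). The lower values of Cnn1 than Tnmd cells at Day 7 and Day 10 were not called (adjusted p = 0.243 and 0.0742).

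Counts of members called have to be read against all 15163 genes of that fit. Between Matn1 and Tnmd cells 4, 5 and 4 of the 5 members were called at Day 2, Day 7 and Day 10, where 23.9%, 27.0% and 29.7% of all genes were. Between Cnn1 and Tnmd cells 2, 4 and 3 were called, where 15.1%, 24.4% and 23.1% of all genes were. Between Matn1 and Cnn1 cells 3, 5 and 5 were called, where 34.7%, 59.6% and 58.4% of all genes were.

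From Day 2 to Day 10 all 5 members rose within each class. The log2 fold change of Comp was 6.96 ± 0.12 SE in Matn1 cells, 8.19 ± 0.28 in Tnmd cells and 7.74 ± 0.18 in Cnn1 cells (adjusted p = 3.46e-10, 1.97e-11 and 2.4e-11, edgeR), and the differences between these values are tested below. In Tnmd cells it rests on 8 UMIs at Day 2 (267 times by pooled counts, exact interval 135 to 619.6), and in Cnn1 cells its Day 10 level (116 and 85.9 CPM) is to be set beside that of macrophages (84.4 and 60.8 CPM) and that of cells with at least 3 Cnn1 UMIs (67.8 and 53.2 CPM). For Thbs2 the values were 3.90 ± 0.18, 4.03 ± 0.13 and 3.26 ± 0.07, to be read with the Day 2 levels near that of macrophages and, in cells with at least 3 Matn1 UMIs, a Day 10 level within the macrophage range. For Thbs1 they were 1.39 ± 0.11, 2.16 ± 0.12 and 2.25 ± 0.08, and for Thbs3 1.44 ± 0.10, 0.95 ± 0.18 and 0.69 ± 0.08. The Thbs1 values are to be read with its level in macrophages, which rose from 53.5 and 35.4 CPM to 363 and 327 CPM. The part of background in the Thbs1 rise of each class was not tested. Thbs4 rose by 2.49 ± 0.29 in Tnmd cells and 4.84 ± 0.25 in Cnn1 cells, and in Matn1 cells from 4 UMIs to 1362 (33.8 times by pooled counts, exact interval 13.2 to 124). Macrophages held Thbs4 at 1.76 and 24.6 CPM at Day 10, the latter above the Matn1 and Cnn1 cells of replicate B. In cells with at least 3 marker UMIs the Thbs4 change was 1.31 in Tnmd cells (adjusted p = 0.0128, edgeR), and in Matn1 cells the fitted value was 3.21 (adjusted p = 0.0192), against 5.36, both on few Day 2 UMIs, with a Day 10 level of 3.73 and 1.62 CPM. Over all genes, 62.3% were called in Matn1 cells, 55.0% in Tnmd cells and 74.1% in Cnn1 cells.

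Whether these changes differed between classes was tested as a difference of the log2 fold changes. Thbs1 rose less in Matn1 cells than in Tnmd cells (-0.79 ± 0.11 SE, adjusted p = 0.000115, edgeR) or Cnn1 cells (-0.83 ± 0.10, adjusted p = 1.53e-05). Thbs3 rose more in Matn1 than in Cnn1 cells (0.78 ± 0.11, adjusted p = 5.6e-05). The 2 differences against Cnn1 cells were called without each library in turn and when classes could share cells, though they shrank to -0.24 and 0.31 when classes could share cells, whereas that of Thbs1 against Tnmd cells was then -0.18 (adjusted p = 0.115). Thbs2 rose less in Cnn1 than in Tnmd cells (-0.82 ± 0.16, adjusted p = 0.00308, but 0.0681 without Day 2 replicate B) and more in Matn1 than in Cnn1 cells (0.67 ± 0.16, adjusted p = 0.00617, but 0.153 without Day 2 replicate A). Neither Thbs2 difference was called when classes could share cells (-0.27, adjusted p = 0.0791, and 0.24, adjusted p = 0.223) or with at least 3 marker UMIs (-0.69, adjusted p = 0.0894, and 0.55, adjusted p = 0.120).

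Thbs4 rose more in Cnn1 than in Tnmd cells (2.33 ± 0.57, adjusted p = 0.0177, edgeR), which was not called without Day 2 replicate A (adjusted p = 0.264) or Day 10 replicate A (0.0543), or when classes could share cells (0.84, adjusted p = 0.279). Comp rose less in Matn1 than in Cnn1 cells (-0.73 ± 0.19, adjusted p = 0.0103), which was not called without Day 2 replicate A (adjusted p = 0.0689) or with at least 3 marker UMIs (-0.33, adjusted p = 0.519), and was -2.55 when classes could share cells. The Comp level of Cnn1 cells at Day 10 could not be told from background, as given earlier. Of the 5 members, 1 was called between Matn1 and Tnmd cells, 2 between Cnn1 and Tnmd cells and 4 between Matn1 and Cnn1 cells, where 14.8%, 8.21% and 24.8% of all genes were. Between Matn1 and Tnmd cells, Thbs4 (2.87 ± 1.12, adjusted p = 0.101, edgeR) was called with no count filter (2.90, adjusted p = 3.00e-05). Thbs3 (0.47 ± 0.17, adjusted p = 0.0893) was called when classes could share cells (0.26, adjusted p = 0.0370). The Comp difference between Matn1 and Tnmd cells (-1.29 ± 0.45, adjusted p = 0.0651) was called when classes could share cells (-3.39, adjusted p = 0.000103), with no count filter (-1.26, adjusted p = 0.0408) and without Day 10 replicate B (-1.45, adjusted p = 0.016).

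**Figure D4:**
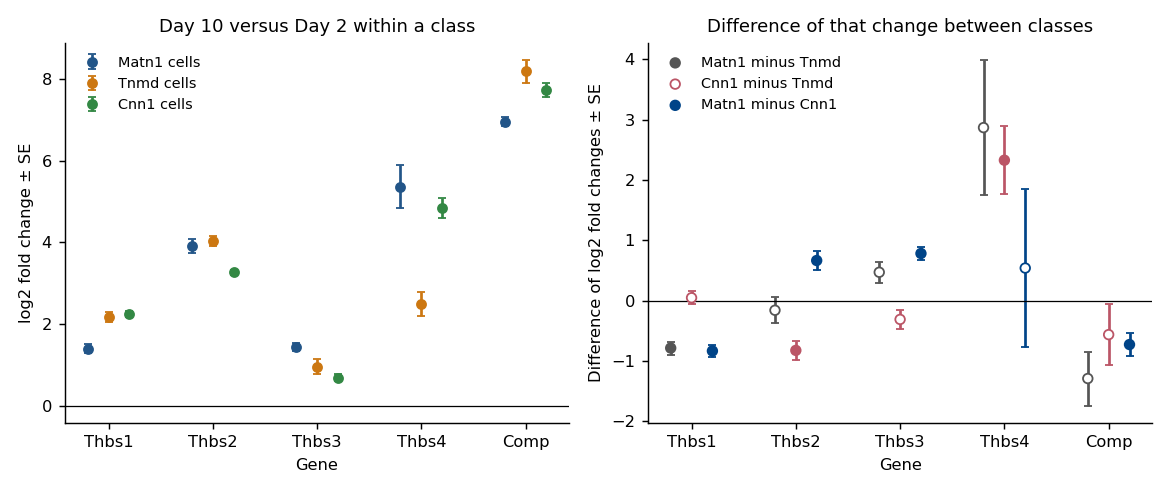
The left panel gives the log2 fold change (± SE) of each thrombospondin from Day 2 to Day 10 in Matn1, Tnmd and Cnn1 cells, and the right panel the difference of those changes between classes (± SE), filled where adjusted p was under 0.05. The Comp change is the largest of the 5 in each class (6.96 to 8.19) and Thbs3 has the smallest in Tnmd and Cnn1 cells (0.95 and 0.69).

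Genes that work with thrombospondins were followed in whole cultures. Their counts are to be read against the 70.3% of all genes called between Day 2 and Day 7 and the 52.2% called between Day 7 and Day 10. Of 13 cell-surface receptors and binders, 7 rose, 3 fell and 3 were not called between Day 2 and Day 7 (median log2 fold change 0.34, against 0.01 over all genes). Sdc4, a syndecan, went from 54.6 and 50.5 CPM to 192 and 188 CPM (log2 fold change 2.14), the laminin-binding integrin subunit Itga6 rose by 1.96 and Itgb3, the partner of integrin alpha v, by 1.20, while the fibronectin-binding integrin subunit Itga4 fell by 1.99. Scaled by total UMIs alone, 6 of the 13 rose and 6 fell. The 10 of 13 called lay near the share of all genes. Between Day 7 and Day 10, 6 rose and none fell, a smaller share called than the 52.2% of all genes. Cd47, a receptor of THBS1, rose by 0.62 to 158 and 146 CPM, Cd36 by 0.71, Sdc1 by 0.57 and Itga3 by 0.40.

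All 13 matrix partners rose between Day 2 and Day 7 (median log2 fold change 2.81), led by aggrecan (Acan, 5.22), decorin (Dcn, 4.96), matrilin-3 (Matn3, 4.45) and collagen II (Col2a1, 3.95), the last from 616 and 694 CPM to 8698 and 7905 CPM. Between Day 7 and Day 10, 8 of them fell and 4 rose (median -0.55). The collagen IX genes Col9a3 and Col9a1 fell by 1.03 and 0.89 and Dcn by 0.89, while Col1a2 of collagen I rose by 0.93. Comp went on rising in that interval, as given earlier.

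Of 8 genes of latent TGF-beta and its binding proteins, 6 rose and 1 fell in each interval (median log2 fold change 1.31, then 0.39), 7 of 8 called where 70.3%, then 52.2% of all genes were. Scaled by total UMIs alone, 6 rose and 2 fell in the first interval. Lrrc32, which holds latent TGF-beta on cells, rose by 3.51 and the binding proteins Ltbp2, Ltbp4 and Ltbp3 by 3.08, 1.92 and 1.57 between Day 2 and Day 7. Between Day 7 and Day 10 Ltbp2 rose by 0.69, Tgfb1 by 0.62, Lrrc32 by 0.56 and Ltbp3 by 0.44.

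Of 8 proteases that act on thrombospondins or COMP, 5 rose and 2 fell in each interval (median 0.55, then 0.33), 7 of 8 called where 70.3%, then 52.2% of all genes were. Scaled by total UMIs alone, 4 rose and 2 fell in the first interval. Mmp13, the collagenase of late growth-plate cartilage, stood at 0.00486 and 0.0112 CPM at Day 2, 1.98 and 2.28 CPM at Day 7, and 17.2 and 17.3 CPM at Day 10. Adamts12 rose by 1.68 and Mmp2 by 1.03 between Day 2 and Day 7, while Adamts7, which cleaves COMP, fell by 1.68. Between Day 7 and Day 10 Mmp14 rose by 0.51 and Adamts4 by 0.44. Mmp9 was called up (1.31, adjusted p = 0.0437, edgeR) although its Day 10 cultures stood at 3.42 and 12.3 CPM, the first within the range of Day 7.

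Of 8 folding factors of the endoplasmic reticulum, through which COMP is secreted, 4 rose and 1 fell between Day 2 and Day 7 and none rose between Day 7 and Day 10, with 1 fall (Canx, -0.22). Both the 5 of 8 and the 1 of 8 called are smaller shares than the 70.3% and 52.2% of all genes. The log2 fold changes were 0.96 for the stress sensor Atf6, 0.44 for Manf, 0.25 for the chaperone Hspa5 and 0.24 for Pdia4. Scaled by total UMIs alone, 2 rose and 4 fell, and Hspa5 (-0.030) and Pdia4 (-0.046) turned and were not called. Their CPM overlapped between the days, at 851 and 791 then 848 and 759.7 for Hspa5.

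The genes most like each member were those with the highest Pearson correlation of log2(CPM + 1) with it over the 18 class sums, out of 8033 genes with a mean of at least 10 CPM. The sums share libraries and follow the same 3 days, so these values are given as a description. For Comp they were Vldlr, the collagen prolyl hydroxylase P3h1 and the heparan sulphate synthase Ext2 (r = 0.99 each). For Thbs2 they were periostin (Postn), Abi3bp and Col1a2 (0.99 each), and for Thbs4 they were Col3a1 (0.97), Igfbp3 (0.97) and Pros1 (0.96). For Thbs1 they were the laminin chain Lama5 (0.97), the myosin Myo1c (0.96) and the basement-membrane collagen Col4a5 (0.96), and for Thbs3 Ostn (0.95), Hint3 (0.95) and Slc1a5 (0.94).

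Among the members themselves, Thbs3 and Comp (r = 0.90) and Thbs2 and Thbs4 (r = 0.90) were the closest pairs over the same 18 sums, followed by Thbs1 and Thbs2 (0.76). Thbs3 and Thbs4, both pentameric, had the lowest value (0.23), and Thbs1 and Thbs3 the next (0.26). Of the 3 closest pairs, Thbs3 with Comp and Thbs1 with Thbs2 lay within the pentamers and the trimers, and Thbs2 with Thbs4 crossed the split.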

How the data were processed

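Single-cell RNA-seq (10x Chromium 3′) was made from 6 cultures, 2 each at Day 2, Day 7 and Day 10. The deposited files hold UMI counts per gene and barcode, which the authors made with Cell Ranger 6.1.2 (STAR, GRCm38/mm10) and analysed in Seurat 4.1.0. The study's filters on UMIs, genes, mitochondrial and ribosomal shares were applied again per library. Counts were summed per library, or per library and class of cells, so that the culture was the unit of every test and p-values measure the spread between cultures. Sums were tested with edgeR 4.0.16 (quasi-likelihood, TMM, filterByExpr, R 4.3.3), with Benjamini-Hochberg adjustment over all genes tested and a threshold of 0.05. Class comparisons held the library as a term over 18 sums. DESeq2 1.42.0, other scalings, filters and classes, and leaving out each library were alternatives. Code was tested on simulated data.

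The members and all lists were chosen with earlier results of these data known. Besides the members, the text names the 3 genes most correlated with each and up to 4 called genes with the largest change per partner list and comparison. Intervals cover counting error only. Promoters came from a RefSeq table (GRCm38.p6) and gene positions from GENCODE.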

Additional observations from a re-analysis of the deposited data

Results flagged for a closer look

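The change from Day 2 to Day 10 differed between classes of cells for 7 combinations of member and class pair, by edgeR's test of the difference itself with Benjamini-Hochberg adjustment: 1 of 5 members between Matn1 and Tnmd cells, 2 of 5 between Cnn1 and Tnmd cells and 4 of 5 between Matn1 and Cnn1 cells, where 14.8%, 8.21% and 24.8% of all genes were called. Thbs1 rose less in Matn1 than in Tnmd cells (difference of log2 fold changes -0.79, adjusted p = 0.000115) and than in Cnn1 cells (-0.83, adjusted p = 1.53e-05). Thbs3 rose more in Matn1 than in Cnn1 cells (0.78, adjusted p = 5.6e-05), as did Thbs2 (0.67, adjusted p = 0.00617), and Comp rose less (-0.73, adjusted p = 0.0103). Against Tnmd cells, Cnn1 cells showed a smaller rise of Thbs2 (-0.82, adjusted p = 0.00308) and a larger rise of Thbs4 (2.33, adjusted p = 0.0177). The Thbs1 difference between Matn1 and Cnn1 cells and that of Thbs3 were called under every alternative run, and the other 5 were not. When classes could share cells the adjusted p was 0.115 for Thbs1 between Matn1 and Tnmd cells, 0.0791 and 0.223 for the Thbs2 differences of Cnn1 against Tnmd and Matn1 against Cnn1 cells, and 0.279 for Thbs4. With at least 3 marker UMIs it was 0.0894 and 0.120 for those of Thbs2 and 0.519 for Comp. Without Day 2 replicate A it was 0.153 for Thbs2 between Matn1 and Cnn1 cells, 0.264 for Thbs4 and 0.0689 for Comp, without Day 2 replicate B 0.0681 for Thbs2 between Cnn1 and Tnmd cells, and without Day 10 replicate A 0.0543 for Thbs4. Comp stood at 116 and 85.9 CPM in Cnn1 cells at Day 10, at 67.8 and 53.2 CPM in those with at least 3 Cnn1 UMIs, and at 84.4 and 60.8 CPM in macrophages. Thbs1 in macrophages rose from 53.5 and 35.4 CPM at Day 2 to 363 and 327 CPM at Day 10. Their Thbs4 stood at 1.76 and 24.6 CPM at Day 10. The causes were not tested.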

How the results depend on the processing

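Of 805 member values under alternatives, 743 kept direction and side of the threshold, 27 lost the call, 16 gained it and 19 changed sign. The cause was not tested. When classes could share cells, values turned to -0.024 and -0.20 for Thbs1 (Matn1 against Tnmd, Day 2 and Day 7), and, for Cnn1 against Tnmd, to -0.089 for Thbs2 at Day 2, 0.011 and 0.010 for Thbs3 at Day 7 and Day 10, and 1.01, 0.37 and 0.17 for Comp at Day 2, Day 7 and Day 10. With at least 3 marker UMIs they turned to -0.10, -0.063 and 0.18 for Thbs2, Thbs3 and Comp (Cnn1 against Tnmd, Day 2), and, for differences of the change, to -0.10 for Thbs1 (Cnn1 against Tnmd) and -1.31 for Thbs4 (Matn1 against Cnn1). That Thbs1 difference was -0.061 in cells with at least 5000 UMIs and -0.070 to 0.23 without 1 library. Leaving out 1 library gave -0.023 to 0.16 for Thbs2 and -0.049 to 0.18 for Thbs3 (Cnn1 against Tnmd, Day 2) and -0.42 to 0.18 for the Thbs2 difference between Matn1 and Tnmd cells. None of the turned values was called except those of Thbs1 at Day 7 and Comp at Day 7 and Day 10.

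Counts of genes called when classes could share cells were 6984, 7634 and 6966 (Matn1 against Tnmd, Day 2, Day 7 and Day 10, against 3625, 4090 and 4500), 3540 (Cnn1 against Tnmd, Day 2, against 2289), 5407 and 2827 (difference of the change, Matn1 and Cnn1 against Tnmd, against 2250 and 1245) and 10508 (Day 10 against Day 2 in Tnmd cells, against 6589). With at least 3 marker UMIs they were 2404 (Matn1 against Tnmd, Day 2), 807 (difference, Cnn1 against Tnmd) and 4178 (Day 10 against Day 2, Tnmd cells). Leaving out 1 library left an arm with 1 sum, assumed to vary like the others, and gave 2179 to 2449, 2314 to 2448 and 2421 to 2623 (Matn1 against Tnmd, Day 2, Day 7 and Day 10), 1105 to 1575, 1954 to 1994 and 1528 to 2243 (Cnn1 against Tnmd, against 2289, 3693 and 3499), 3293 to 3821 (Matn1 against Cnn1, Day 2, against 5257), and for differences 1400 to 1579 (Matn1 against Tnmd), 504 to 902 (Cnn1 against Tnmd) and 2382 to 2933 (Matn1 against Cnn1, against 3756).

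Scaling by total UMIs alone, added after seeing the data, moved the share of called genes that were higher by over 10 points in several comparisons, among them 52.7% to 31.6% (Matn1 against Tnmd, Day 7), 65.3% to 50.6% (Cnn1 against Tnmd, Day 2), 58.9% to 40.9% (difference, Matn1 against Cnn1) and 54.0% to 36.5% (Day 10 against Day 2, Matn1 cells). No member changed sign under it. With the replicate letter as a replicate block, the Day 10 against Day 7 count was 9607, against 9913, and no member's call changed. No pairing of cultures by letter is stated in the sources used here. The differences of B minus A correlated between days at -0.016, -0.057 and -0.0077, which cannot show whether same-lettered cultures shared a pool or run. Small Tnmd classes and the few Thbs4 and Comp UMIs at Day 2 limit what could be seen there.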

Other observations

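Cells with at least 3 UMIs of a marker of another skeletal state were described after the data were seen, with no test, and these sets can share cells. Cells with UMIs of Ihh, the signal of prehypertrophic chondrocytes (127, 125, 335, 390, 545 and 515 cells, Day 2 A to Day 10 B), held Comp at 9.16 and 11.3 CPM at Day 2, 1074 and 984 CPM at Day 7, and 4012 and 3584 CPM at Day 10, with Thbs1 at 510.2 and 515 CPM and Thbs2 at 34.3 and 34.6 CPM at Day 10. Cells with UMIs of Col10a1, the collagen of hypertrophic cartilage, held Comp at 1923 and 1380.5 CPM and Thbs1 at 1258 and 1129 CPM at Day 10. Cells with UMIs of Ibsp, a bone matrix gene, held Comp at 2552 and 2025 CPM and Thbs1 at 515 and 448 CPM on that day.

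The sets of the joint genes Gdf5 and Prg4 differed in Comp at Day 10, where Gdf5 cells overlapped the Col10a1 and Ibsp cells and Prg4 cells lay below them. Cells with UMIs of Gdf5, a joint interzone signal, numbered 35 and 44 at Day 10 and held Comp at 2882 and 1468 CPM there, after 1.30 and 2.27 CPM at Day 2. Cells with UMIs of Prg4, the lubricin of joint surfaces, numbered 535 and 460 at Day 10 and held Comp at 274 and 230.1 CPM and Thbs1 at 1101 and 1040.1 CPM. Their Thbs4 went from 0 and 1.99 CPM at Day 2 through 55.8 and 40.7 CPM to 98.4 and 55.4 CPM at Day 10. Tnmd cells with at least 3 UMIs held Thbs4 at 39.4 and 77.6 CPM at Day 7 and 27.7 and 61.4 CPM at Day 10, so that the sets overlapped on both days. The sets were not tested against each other.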
